A study of Mus musculus with 15 samples.

Results

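The genes described here encode 10 enzymes of nicotinamide adenine dinucleotide (NAD) metabolism, namely Nampt, Naprt, Nmrk1, Qprt, Nmnat1, Nadsyn1, Nnmt, Cd38, Bst1 and Nt5e. They were taken by name, and 10 of 10 were found among the 17752 genes listed in at least 1 mouse. RNA was sequenced from a piece of ileum of 15 female C57BL/6 mice aged 8 weeks, 5 in each of 3 groups, which according to the methods were of the substrain C57BL/6JOlaHsd and all kept on a purified diet. The water group was gavaged with water alone, and the low PAC and high PAC groups with proanthocyanidins (PAC) from grape at 200 mg/kg every second day over 10 days. PAC are polymers of flavan-3-ols, and the labels name the 2 preparations by low and high molecular weight. The methods describe the same groups by the mean degree of polymerization (mDP), as Sephadex fractions of grape pomace of low and medium mDP, so the fraction that the labels call high is the one that the methods call medium. Each library is whole tissue from 1 mouse, so a change in the number of cells of a type and a change in RNA per cell cannot be told apart, and transcript levels say nothing of enzyme activity or of NAD itself.

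NAD carries electrons in metabolism and is consumed as a substrate by sirtuins, ADP-ribosyltransferases and NAD hydrolases, so cells have to make it continuously. It is made from nicotinamide by NAMPT, from nicotinic acid by NAPRT and NADSYN1, from nicotinamide riboside by NMRK1 and from tryptophan through QPRT, and the NMNAT enzymes join these routes. On the cell surface, CD38 and BST1 (CD157) cleave NAD, and NT5E (CD73) dephosphorylates extracellular nucleotides, AMP to adenosine and nicotinamide mononucleotide to nicotinamide riboside.

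The largest differences among the enzymes between high PAC and water were in 2 genes of the cell surface. In the ileum of high PAC mice, Nt5e was at 9.97 ± 1.29 FPKM (SD, n = 5) against 15.4 ± 3.98 in water mice, and Bst1 at 40.6 ± 9.55 against 58.7 ± 6.99. FPKM are fragments scaled to gene length and to the mapped fragments of the library. Both had an unadjusted p under 0.05 in edgeR and neither passed after adjustment over all genes, and Cd38, the third ectoenzyme and the neighbour of Bst1 in the genome, was at 45.0 ± 14.7 FPKM against 42.8 ± 7.02. The genes that make NAD differed by 0.20 or less on the log2 scale between high PAC and water.

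The 300 bases around the transcription start (250 before and 50 after it) are shown for Nt5e, which had the lowest p of the enzymes, for Enpp3, a nucleotide-cleaving surface enzyme of the wider pathway that was lower in both PAC groups at an unadjusted p under 0.05, and for Cd38, a surface enzyme that was not. The sequences are those of RefSeq for GRCm38.p6, 5′ to 3′ on the strand of the gene, and 7 of the 10 enzymes had such a window, those without being Naprt, Nnmt and Bst1. The start is that of a RefSeq transcript and need not be the end of the gene span given further on, which covers all annotated transcripts, and each of the 3 windows lies inside that span. Capitals mark matches on either strand to 5 short motifs, the GC box (GGGCGG), the TATA box (TATAAA), the CCAAT box (CCAAT), the GATA motif (AGATAA) and an HNF4 motif (CAAAGTCCA), none of which is contained in another.
Nt5e, chr9:88327359-88327658, plus strand: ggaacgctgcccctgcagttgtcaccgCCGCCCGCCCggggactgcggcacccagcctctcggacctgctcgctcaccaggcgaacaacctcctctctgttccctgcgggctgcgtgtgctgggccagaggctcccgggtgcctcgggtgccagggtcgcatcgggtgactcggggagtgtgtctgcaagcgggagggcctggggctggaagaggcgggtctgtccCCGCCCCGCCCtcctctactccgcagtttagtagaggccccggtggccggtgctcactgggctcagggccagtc
Enpp3, chr10:24836146-24836445, minus strand: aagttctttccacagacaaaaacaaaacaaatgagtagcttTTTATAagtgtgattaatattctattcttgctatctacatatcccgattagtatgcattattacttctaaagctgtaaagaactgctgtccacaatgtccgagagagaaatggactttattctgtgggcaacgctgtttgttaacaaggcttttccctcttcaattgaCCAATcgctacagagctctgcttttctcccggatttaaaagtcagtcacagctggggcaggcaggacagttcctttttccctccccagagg
Cd38, chr5:43868559-43868858, plus strand: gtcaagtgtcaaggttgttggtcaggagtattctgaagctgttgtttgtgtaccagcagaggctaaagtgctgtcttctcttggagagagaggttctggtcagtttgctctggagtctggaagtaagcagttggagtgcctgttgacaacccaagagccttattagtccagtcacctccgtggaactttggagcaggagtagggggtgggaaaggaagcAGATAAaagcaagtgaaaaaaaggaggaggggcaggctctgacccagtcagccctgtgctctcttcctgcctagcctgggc
The Nt5e window was 71% G and C and held 4 GC boxes, overlapping copies counted singly, and no other of these motifs. The Enpp3 window was 40.7% G and C and held 1 TATA box and 1 CCAAT box. The Cd38 window was 51.7% G and C and held 1 GATA motif. Among the 32851 windows of the table, which gives several starts for some genes, the median was 52.7% G and C, and a GC box was in 35.7%, a TATA box in 13.6%, a CCAAT box in 37.4%, a GATA motif in 11.2% and the HNF4 motif in 0.475%. A match is a description of the letters and not a bound site.

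The water mice give the order of the levels in untreated ileum. Bst1 was highest at 58.7 FPKM, followed by Cd38 at 42.8 and Naprt at 39.1 ± 3.01, and the ranges of neighbours in this order overlapped. A gap then separated these 3 from Nampt at 21.0 ± 2.97, Nadsyn1 at 18.0 ± 1.04 and Nt5e at 15.4, whose neighbouring ranges also overlapped. Nmnat1 at 4.67 ± 0.43 and Nmrk1 at 4.29 ± 0.21 overlapped with each other and with none above. Nnmt at 1.10 ± 0.36 and Qprt at 0.286 ± 0.136 each stood below all the others. Of the enzymes that start on a vitamin precursor, Naprt had a higher level per length than Nampt in every water mouse, between 34.5 and 42.0 FPKM against between 18.0 and 25.0.

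**Figure D1:**
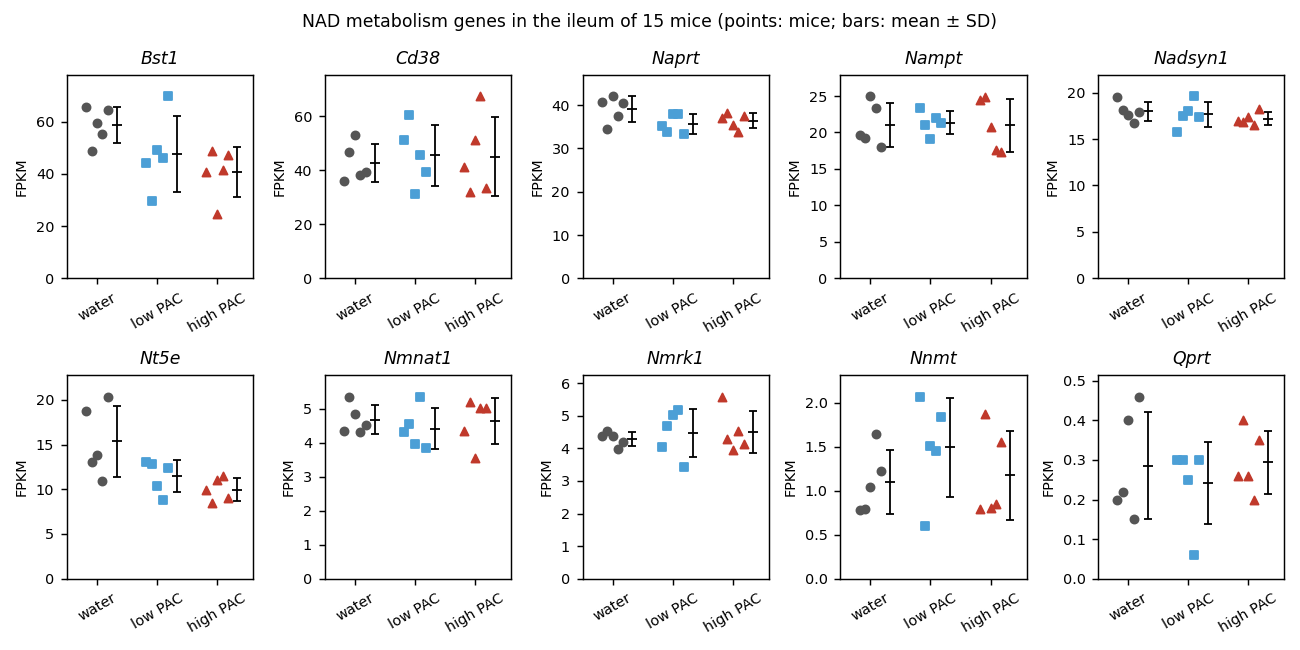
FPKM of the 10 enzymes in the ileum (vertical axes from 0, 1 panel a gene in the order of their water level), with 1 point a mouse and bars for the mean ± SD of 5 mice. In Bst1, 4 of the 5 high PAC mice lie below the lowest water mouse, and in Nt5e 3 of 5, while the groups overlap in all 10 genes.

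The comparison of each PAC group with water asks whether PAC given by mouth alter transcription in the ileum, and the comparison of both PAC groups whether the fractions differ. Expected counts, the authors' estimates of the fragments of each gene, summed to between 15963086 and 17903886 a mouse. The edgeR quasi-likelihood test covered 14386 genes, and 9 of the 10 enzymes passed its filter on low counts, Qprt with 1 to 9 counts a mouse being left out. At an adjusted p under 0.05, 2 genes (0.0139% of those tested) were called with high PAC against water, 0 (0%) with low PAC against water and 0 (0%) with high PAC against low PAC, where DESeq2 called 155 (2.3% of those given an adjusted p), 2 and 0. None of the 9 enzymes was among those of edgeR, and DESeq2 called 1, Nt5e, with high PAC. At an unadjusted p under 0.05, 4 of the 9 enzymes were lower with high PAC than with water, where 14.8% of all genes passed in either direction and 10.4% were lower. With low PAC, 2 of the 9 were lower than with water, where 3.61% of all genes passed in either direction and 2.21% were lower. Between the PAC groups it was 0 of 9 in edgeR, where 3.89% of all genes passed, and 0 of 9 in DESeq2 (all genes 3.59%) and in limma on log2(FPKM + 0.1) (all genes 5.53%). The median log2 fold change of the 9 enzymes was -0.10 with high PAC and -0.08 with low PAC against water, beside 0.00 and -0.01 over all genes. Upper-quartile normalization gave medians of -0.04 and -0.05, beside 0.07 and 0.02 over all genes, and limma on log2(FPKM + 0.1) -0.02 and -0.03, beside 0.09 and 0.04. The scaling thus moved the enzymes and all genes together. Without single mice the high PAC median ran from -0.18 (without high PAC replicate 2) to -0.06 (without high PAC replicate 3), and the low PAC median from -0.12 (without low PAC replicate 4) to -0.05 (without water replicate 1). With high PAC, 9 of the 9 enzymes had a fold change below 0 with TMM, where 49.5% of all genes did. With upper-quartile normalization and in limma it was 6 of 9, without Cd38, Nmrk1 and Nnmt, where 36.7% and 32.7% of all genes did. In both, 2 of the 9, Nt5e and Bst1, had an unadjusted p under 0.05. The share of all genes was 16.1% in either direction and 5.67% lower with upper-quartile normalization, and 19.9% and 3.75% in limma. Both enzymes were lower, and 2 of 9 was near the first share of each and above the second. Neither difference was tested. Over all genes, TMM gave 628 higher and 1500 lower at an unadjusted p under 0.05 with high PAC, upper-quartile normalization 1505 higher and 816 lower, and limma 2158 higher and 501 lower. For TMM and upper-quartile normalization, these were 202 and 318 against 312 and 210 with low PAC, and between the PAC groups 264 and 295 against 509 and 167. Between the PAC groups, the enzymes other than Nt5e, Bst1 and Nnmt differed by -0.08 to 0.04 on the log2 scale, and Nnmt by -0.41 with a 95% interval from -1.10 to 0.29. The narrowest intervals were those of Nadsyn1 (-0.23 to 0.06) and Naprt (-0.16 to 0.14), and a p that misses the threshold does not show that the 2 preparations act alike. High PAC replicate 3 weighed on the counts over all genes, since without it 759 genes were higher and 813 lower with high PAC than with water, and 3 of the 9 enzymes passed (all genes 10.9%).

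**Figure D2:**
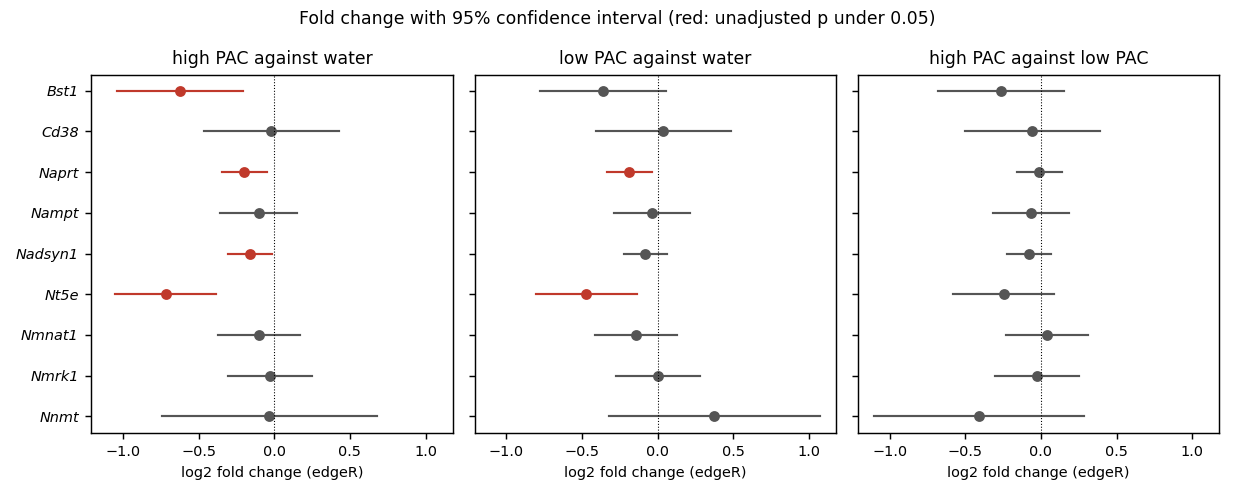
Log2 fold change (horizontal axes) of the 9 enzymes tested in edgeR for the 3 comparisons, with 95% confidence intervals over 15 mice in 1 model, in red where the unadjusted p was under 0.05. Against water, Nt5e and Naprt are red in both PAC groups and Bst1 and Nadsyn1 with high PAC alone, and between the PAC groups every interval spans 0.

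Nt5e (chromosome 9, 88327197 to 88372092, plus strand, GRCm38) encodes the ectonucleotidase that ends the extracellular breakdown of adenine nucleotides. The water mice had 18.7, 13.1, 13.8, 11.0 and 20.4 FPKM. The low PAC mice had 13.0, 12.8, 10.4, 8.85 and 12.4, and the high PAC mice 9.94, 8.45, 11.1, 11.4 and 8.98. All high PAC mice lay within a narrow band at or near the bottom of the water range, with 3 of 5 below the lowest water mouse. The low PAC mean lay between the other means, with 2 of 5 mice below the lowest water mouse. In edgeR it differed between high PAC and water by -0.72 on the log2 scale (standard error, SE, 0.16, adjusted p = 0.133), rank 35 of all genes by p, and in DESeq2 by -0.70 (adjusted p = 0.005). The exact permutation test of log2(FPKM + 0.1) gave p = 0.0238 (two-sided, 1 of 30 such tests of the enzymes, the smallest p possible being 0.0079). On the FPKM scale, which does not carry the TMM factors, the same difference was -0.59. With low PAC the log2 fold change was -0.47 (SE 0.16, edgeR adjusted p = 0.976), and the exact permutation p was 0.0873. High PAC was lower than low PAC by -0.25 on the log2 scale, with a 95% interval from -0.58 to 0.09 (adjusted p = 0.896, edgeR). When each mouse of the groups compared was left out in turn, the fold change with high PAC lay between -0.82 and -0.62, the smallest being those without water replicate 1 or 5, and that with low PAC between -0.57 and -0.37.

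Bst1 (chromosome 5, 43818885 to 43843986, plus strand) encodes a surface enzyme anchored by glycosylphosphatidylinositol that is known from Paneth cells and leukocytes. Water mice had 65.6, 48.6, 59.4, 55.3 and 64.5 FPKM, low PAC mice 44.0, 29.6, 49.0, 45.9 and 69.7, and high PAC mice 40.8, 48.9, 24.7, 41.5 and 47.1. With high PAC, 4 of 5 mice lay below the lowest water mouse and the remaining one just above it. With low PAC, 3 of 5 did, while replicate 5 lay above every water mouse. The log2 fold change with high PAC was -0.62 (SE 0.20, edgeR adjusted p = 0.215) and the exact permutation p was 0.0159. With low PAC it was -0.36 (SE 0.20, edgeR adjusted p = 0.976; exact permutation p = 0.143). The difference between high and low PAC was -0.26, with a 95% interval from -0.68 to 0.15 (adjusted p = 0.896, edgeR). Without high PAC replicate 3, the lowest of all mice, the fold change against water was -0.45 (adjusted p = 0.395, edgeR). With low PAC, the fold change was -0.53 without replicate 5 (adjusted p = 0.907) and -0.24 without replicate 2 (adjusted p = 0.99).

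The level of Bst1 moved with the summed level of 5 markers of enterocytes, the absorptive cells of the epithelium. The summed FPKM of 5 enterocyte markers (Vil1, Alpi, Fabp2, Sis and Apoa1, all detected) lay between 9255 and 12452 in water mice, between 6812 and 11405 with low PAC and between 7315 and 10831 with high PAC. In each group the mouse with the lowest sum was also the mouse with the lowest Bst1, namely water replicate 2, low PAC replicate 2 and high PAC replicate 3. After subtraction of the group means, Pearson's r between log2 Bst1 and the log2 sum over 15 mice was 0.909 (permutation p = 2e-05) and Spearman's rho 0.857 (permutation p = 0.00015). Adjusted over the 160 relations computed between the enzymes and summed markers of cell types, these p-values were 0.0032 and 0.024, and r was 0.892 once the 2 mice most distant from the middle sum were left out. With the other list of absorptive cells, 4 markers of the distal ileum, Bst1 had r = -0.39 (permutation p = 0.091, adjusted p = 0.59) and rho = -0.382 (permutation p = 0.17, adjusted p = 0.63). With the log2 sum as a covariate in edgeR, a model added after seeing the data, the fold change of Bst1 was -0.18 with high PAC (adjusted p = 0.711) and 0.00 with low PAC (adjusted p = 1.00). The same model gave -0.81 for Nt5e with high PAC (adjusted p = 0.363) and -0.55 with low PAC (adjusted p = 0.99), both at an unadjusted p under 0.05, while r of Nt5e to the sum was -0.205 (permutation p = 0.47, adjusted p = 0.91). Of the 5 enterocyte markers, 5 had a fold change below 0 with high PAC. With TMM 4 were lower at an unadjusted p under 0.05, where 10.4% of all genes were, and 0 after adjustment (edgeR). With upper-quartile normalization it was 1, where 5.67% of all genes were, in limma on log2(FPKM + 0.1) 2, where 3.75% were, and in DESeq2 4, where 7.33% were, 1 of them after adjustment. In this model 1 of the 9 enzymes, Nt5e, had an unadjusted p under 0.05 with high PAC, where 7.81% of all genes did. The mean sum was itself lower in the PAC groups, at 9605 FPKM with low PAC and 9198 with high PAC against 11654 with water. The model therefore cannot separate the number of enterocytes from RNA per cell, and the part of the epithelium in the Bst1 difference was not tested.

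**Figure D3:**
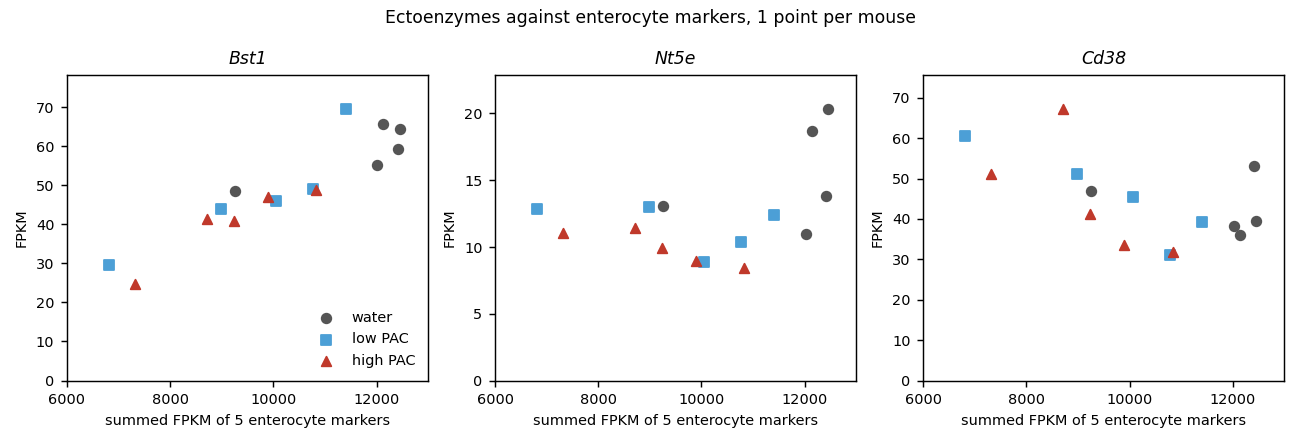
FPKM of the 3 ectoenzymes (vertical axes from 0) against the summed FPKM of 5 enterocyte markers (horizontal axes, not from 0), with 1 point a mouse. Bst1 is low where the sum is low in all 3 groups, Nt5e shows no such order, and the highest Cd38, 67.3 FPKM, is in a high PAC mouse with a sum of 8715.

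Cd38 (chromosome 5, 43868553 to 43912375, plus strand) encodes the main NAD-cleaving surface enzyme of mammalian tissue and lies 24566 bases from Bst1 with 0 coding genes between them. Its FPKM was 36.1, 46.9, 53.0, 38.4 and 39.5 with water, 51.0, 60.6, 31.1, 45.5 and 39.3 with low PAC and 41.2, 31.8, 51.2, 67.3 and 33.5 with high PAC. The PAC groups spread to both sides of the water range. The coefficient of variation was 16.4% with water, 24.7% with low PAC and 32.5% with high PAC. The log2 fold change was -0.02 with high PAC (95% interval -0.47 to 0.42, adjusted p = 0.969, edgeR) and 0.04 with low PAC (-0.41 to 0.48, adjusted p = 0.992). The interval with high PAC did not reach the value of Bst1 with high PAC, while that with low PAC included the value of Bst1 with low PAC. The difference between the genes was not tested. Cd38 and Bst1 varied in opposite directions between mice of a group (r = -0.57 over 15 mice after subtraction of group means, as a description), and r of Cd38 to the enterocyte sum was -0.682 (permutation p = 0.012, adjusted p = 0.27). With that sum as a covariate in edgeR, Cd38 was at -0.41 with high PAC (adjusted p = 0.648) and -0.31 with low PAC (adjusted p = 0.99).

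Naprt (chromosome 15, 75890956 to 75894481, minus strand) encodes the first enzyme of the nicotinic acid route. Water mice had 40.7, 34.5, 42.0, 37.6 and 40.5 FPKM, low PAC mice 35.3, 33.7, 37.9, 38.0 and 33.3, and high PAC mice 37.1, 38.2, 35.4, 33.8 and 37.5. All PAC mice were below the 3 highest water mice, and the groups overlapped through water replicates 2 and 4. The log2 fold change was -0.20 with high PAC (SE 0.07, edgeR adjusted p = 0.25) and -0.19 with low PAC (SE 0.07, edgeR adjusted p = 0.976). On the FPKM scale the log2 differences were -0.10 and -0.13, with exact permutation p of 0.143 and 0.0873. Without water replicate 3, the highest of all mice, the edgeR value with low PAC was -0.15 and its unadjusted p above 0.05. With the enterocyte sum as a covariate it was -0.12 in both PAC groups, with an unadjusted p above 0.05. Of the exonic bases of Naprt, 277 are shared with Eef1d on the same strand, so reads from these bases could be counted to either gene. Nadsyn1 (chromosome 7, 143795584 to 143822849, minus strand), which makes NAD from its nicotinic acid form in the last step of this route, had 18.0 ± 1.04 FPKM with water, 17.7 ± 1.39 with low PAC and 17.2 ± 0.68 with high PAC. Its fold change with high PAC was -0.16 on the log2 scale (adjusted p = 0.298, edgeR). On the FPKM scale the difference was -0.06 (exact permutation p = 0.19), and without water replicate 1 the edgeR value was -0.12 (adjusted p = 0.528). It missed an unadjusted p of 0.05 without that mouse, and also without high PAC replicate 1, 3 or 4. With low PAC it was -0.08 (adjusted p = 0.976, edgeR).

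Nampt (chromosome 12, 32819545 to 32853349, plus strand), the rate-limiting enzyme of nicotinamide salvage, had nearly equal means in the groups. Its FPKM was 19.6, 19.3, 25.0, 23.4 and 18.0 with water, 23.4, 21.0, 19.1, 22.0 and 21.3 with low PAC and 24.4, 24.9, 20.7, 17.6 and 17.3 with high PAC. The means, 21.0, 21.3 and 21.0, differed by less than the SD of each group. Its log2 fold change was -0.10 with high PAC (95% interval -0.36 to 0.15, adjusted p = 0.679) and -0.04 with low PAC (-0.29 to 0.21, adjusted p = 0.989) in edgeR. Nmnat1 (chromosome 4, 149467572 to 149485202, minus strand), the nuclear enzyme that forms NAD from its mononucleotide, had between 4.32 and 5.34 FPKM with water, 3.83 and 5.35 with low PAC and 3.56 and 5.20 with high PAC. The log2 fold changes were -0.10 (95% interval -0.37 to 0.17) with high PAC and -0.14 (-0.41 to 0.13) with low PAC. After subtraction of group means, Nmnat1 varied opposite to summed markers of several immune cells, with r = -0.768 for germinal centre B cells (permutation p = 0.002, adjusted p = 0.11 over 160 relations), -0.739 for macrophages (permutation p = 0.011, adjusted p = 0.27), -0.709 for follicular B cells (permutation p = 0.0072, adjusted p = 0.26) and -0.641 for T cells (permutation p = 0.018, adjusted p = 0.32). For neutrophils r was -0.156 (permutation p = 0.63, adjusted p = 0.93). Liver markers, which ileum should lack, had r = -0.681 (permutation p = 0.025, adjusted p = 0.32) and rho = -0.779 (permutation p = 0.003, adjusted p = 0.16). None of these relations passed the adjustment. Nmrk1 (chromosome 19, 18631950 to 18652428, plus strand), the kinase of nicotinamide riboside, had between 3.97 and 4.53 FPKM with water, 3.42 and 5.18 with low PAC and 3.96 and 5.59 with high PAC. Its coefficient of variation was 4.98% with water, 16.4% with low PAC and 14.3% with high PAC, and its fold changes were -0.03 (95% interval -0.30 to 0.25) with high PAC and 0.00 (-0.28 to 0.28) with low PAC.

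The remaining 2 enzymes were weakly transcribed. Qprt (chromosome 7, 127107114 to 127122226, minus strand), which completes the route from tryptophan, had between 0.06 and 0.46 FPKM, from 81 counts in the 15 mice together, and no comparison of its groups passed (exact permutation p = 0.762 for high PAC and 0.667 for low PAC against water, and 0.484 between the PAC groups). Nnmt (chromosome 9, 48591877 to 48605153, minus strand), which methylates nicotinamide and so removes it from salvage, had 0.78, 0.79, 1.04, 1.65 and 1.23 FPKM with water, 2.07, 0.60, 1.51, 1.45 and 1.84 with low PAC and 0.79, 1.87, 0.80, 0.85 and 1.56 with high PAC. The values spread over a wide range within every group. From 10 to 33 counts a mouse, the log2 fold change was -0.03 with high PAC (95% interval -0.74 to 0.68) and 0.37 with low PAC (-0.32 to 1.07, adjusted p = 0.976, edgeR). Nnmt is a gene known from fat, and after subtraction of group means it followed the summed FPKM of 4 adipocyte markers with r = 0.831 (permutation p = 0.00034, adjusted p = 0.027 over 160 relations) and rho = 0.818 (permutation p = 0.0019, adjusted p = 0.15). With the 2 most distant mice left out in the same way, r was 0.862. With the enterocyte sum Nnmt had r = 0.739 (permutation p = 0.0082, adjusted p = 0.26), with the proximal small intestine sum rho = 0.511 (permutation p = 0.065, adjusted p = 0.49, and 0.024 and 0.32 for Pearson's r) and with the fibroblast sum rho = 0.611 (permutation p = 0.013, adjusted p = 0.29). With the enterocyte sum as a covariate, the fold change of Nnmt was 0.86 with low PAC (adjusted p = 0.99, unadjusted p under 0.05) and 0.54 with high PAC (adjusted p = 0.696) in edgeR. The adipocyte sum was between 28.6 and 109 with water, 35.8 and 127 with low PAC and 22.0 and 151 with high PAC.

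Pairs of enzymes varied between mice in either direction. Over the 45 pairs of enzymes, r after subtraction of group means lay between -0.58 (Nnmt with Cd38) and 0.64 (Nnmt with Bst1), with a median of 0.01, as a description over 15 mice that share libraries and scaling. The genes most like each enzyme in this measure, among 12420 genes with a mean of at least 1 FPKM, differed between enzymes. For Bst1 they were Agmo (r = 0.937), Gimd1 (0.921) and Gpt (0.921), and for Nt5e Zfp456 (0.875), Ier5 (0.84) and Spsb3 (0.838). For Cd38 they were Tat (0.908), Tc2n (0.907) and Gbp2b (0.897), and for Nampt Gm12250 (0.923), Igtp (0.882) and Rab19 (0.877). For Naprt they were Rbck1 (0.898), Slc25a28 (0.88) and Timmdc1 (0.85), for Nadsyn1 Rasgrp4 (0.856), Thap7 (0.832) and Wdr70 (0.826), and for Nmnat1 Acvr2b (0.912), Pard3 (0.884) and Pigb (0.884). For Nmrk1 they were Kif12 (0.872), Pml (0.849) and Zfp280b (0.835), for Nnmt Fam213a (0.914), Prkar2b (0.908) and Cmklr1 (0.894), and for Qprt Polg2 (0.827), Sumf1 (0.794) and Tor1b (0.782). Values this high are the highest of many genes and carry no test.

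Other genes of NAD metabolism were taken from a list of 46, of which 45 were found and 39 passed the filter on low counts. With high PAC against water, 5 of the 39 had an unadjusted p under 0.05 in edgeR, 4 lower and 1 higher, against 14.8% of all genes. The split rested on the scaling, since upper-quartile normalization and limma each gave 3 lower and 3 higher. With low PAC it was 1 of 39, lower, against 3.61% of all genes. Between the PAC groups it was 0 of 39 in edgeR against 3.89% of all genes, 0 in DESeq2 against 3.59% and 1 in limma against 5.53%. None passed after adjustment in edgeR, and DESeq2 called 1, Parp14, with high PAC (adjusted p = 0.0468). Enpp3 (chromosome 10, 24772406 to 24842823, minus strand), a surface pyrophosphatase that splits NAD and other nucleotides, had 6.41, 6.85, 7.63, 12.4 and 16.3 FPKM with water, 6.30, 5.77, 7.34, 7.90 and 9.14 with low PAC and 5.52, 7.71, 7.02, 5.42 and 7.03 with high PAC. Water replicates 4 and 5 stood above all PAC mice, and the other 3 water mice lay among them. The log2 fold change of Enpp3 was -0.68 with high PAC (SE 0.22, edgeR adjusted p = 0.218) and -0.49 with low PAC (adjusted p = 0.976, edgeR), and with the enterocyte sum as a covariate -0.40 with high PAC (adjusted p = 0.704). Without water replicate 5 the values were -0.46 with high PAC (adjusted p = 0.289) and -0.27 with low PAC (adjusted p = 0.962), the latter with an unadjusted p above 0.05. Parp14, an ADP-ribosyltransferase of interferon responses, had 22.9, 19.5, 29.7, 24.3 and 22.4 FPKM with water, 21.0, 22.9, 14.4, 19.7 and 20.3 with low PAC and 18.6, 20.1, 12.4, 20.1 and 13.5 with high PAC. Water mice other than replicate 2 lay above all high PAC mice. Its log2 fold change was -0.58 with high PAC (SE 0.17, edgeR adjusted p = 0.194) and -0.33 with low PAC (adjusted p = 0.976). Parp9, another ADP-ribosyltransferase of interferon responses, was at 31.6 ± 3.70 FPKM with water, 27.6 ± 3.32 with low PAC and 27.5 ± 5.08 with high PAC (log2 fold change -0.30 with high PAC, adjusted p = 0.318, edgeR, and -0.21 without high PAC replicate 3, adjusted p = 0.546). Tnks, a tankyrase, was at 7.68 ± 0.53 with water and 6.37 ± 1.35 with high PAC, where replicate 3 alone had 4.00. Without that mouse the log2 fold change of Tnks was -0.20 (adjusted p = 0.398) in place of -0.36 (adjusted p = 0.261, edgeR). The mitochondrial NAD kinase Nadk2 was higher with high PAC, at 15.3 ± 1.89 against 12.2 ± 1.67 FPKM (log2 fold change 0.24, adjusted p = 0.319, edgeR), but without high PAC replicate 3 it was 0.20 (adjusted p = 0.493), and with the enterocyte sum as a covariate 0.05 (adjusted p = 0.929).

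**Figure D4:**
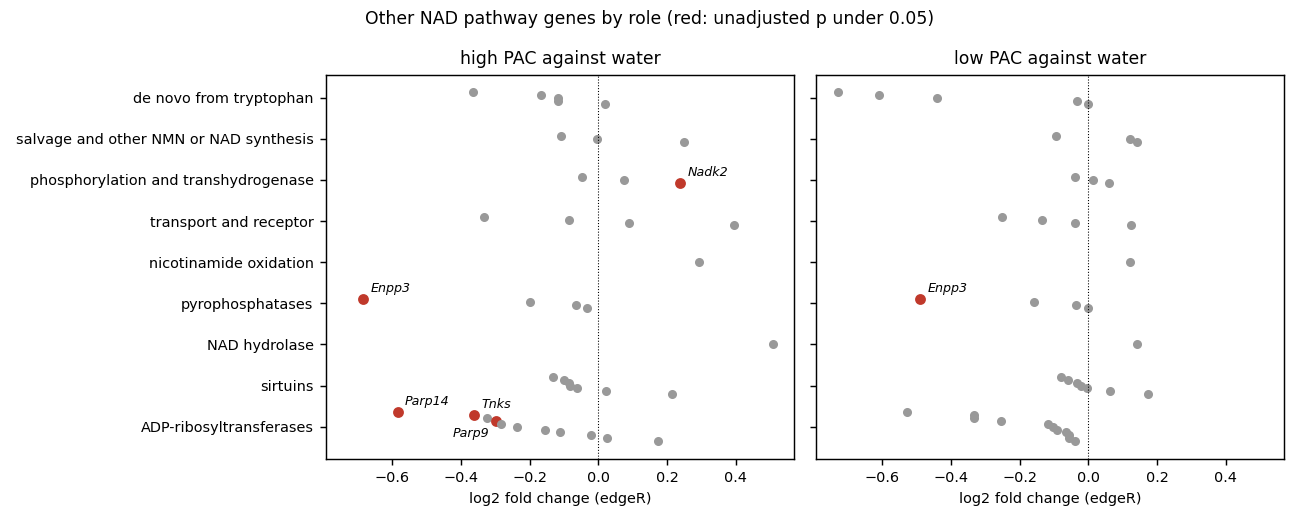
Log2 fold change against water in edgeR (horizontal axes) of the 39 other NAD pathway genes tested, 1 point a gene, placed by role, with names and red points where the unadjusted p was under 0.05. Enpp3 is the lowest of the 5 named genes with high PAC, at -0.68, and the one named gene with low PAC, at -0.49.

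Enpp3 and Parp9, described above, were also the most abundant genes of their roles. In every other role the most abundant gene had an unadjusted p above 0.05 in both comparisons with water. The cytosolic NAD kinase Nadk was at 75.9 ± 3.07, 79.7 ± 3.76 and 85.7 ± 4.97 FPKM with water, low PAC and high PAC, and its log2 fold change with high PAC was 0.07 (adjusted p = 0.609, edgeR). Its FPKM was above that of every water mouse in every high PAC mouse, 79.4 to 91.6 against 71.3 to 79.2, a difference that the TMM factors reduced. These factors were mostly higher with high PAC (1.0068 to 1.0554) than with water (0.9349 to 1.0123), and the ranges overlapped. FPKM ranges of high PAC lay wholly above those of water in 3.99% of all genes tested. Sirt5, a sirtuin chosen here after its values were seen, was another, at 3.29 to 3.98 against 2.58 to 3.28 (log2 fold change 0.21, adjusted p = 0.383, edgeR). Pnp, which releases nicotinamide from its riboside, was at 77.4 ± 5.51, 75.4 ± 5.84 and 76.7 ± 8.36. Slc5a8, a transporter that carries nicotinate and short-chain fatty acids, was at 63.6 ± 14.1, 60.3 ± 13.8 and 54.0 ± 13.0 (log2 fold change with high PAC -0.33, adjusted p = 0.438, edgeR). Sirt2, the most abundant of the 7 sirtuins, was at 36.4 ± 1.87, 37.5 ± 3.67 and 36.6 ± 2.57. Ido1, which starts the route from tryptophan, was at 12.7 ± 2.07, 12.9 ± 1.73 and 12.0 ± 2.93. The oxidase Aox1 and the NAD hydrolase Sarm1 were under 1 FPKM in every group mean, at 0.694, 0.79 and 0.912 and at 0.11, 0.126 and 0.164.

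The pieces of tissue also differed in lymphoid markers. The FPKM of 8 follicular B cell genes summed to over 70 FPKM in 7 mice, 3 of them water, 2 low PAC and 2 high PAC, and to under 10 in the other 8, with a range from 6.20 to 242. With this sum as a covariate, the fold changes with high PAC were -0.68 for Nt5e (adjusted p = 0.104) and -0.62 for Bst1 (adjusted p = 0.183) in edgeR. Of the lymphoid sums, Nt5e had r = 0.537 and rho = 0.6 with germinal centre B cells (permutation p = 0.016 and 0.021, adjusted p = 0.31 for both) and r = 0.466 and rho = 0.654 with plasma cells (permutation p = 0.051 and 0.016, adjusted p = 0.43 and 0.31). No model with these 2 sums as a covariate was run. Markers of position along the intestine, where the label names only intestine and the methods the ileum, were compared as well. The summed markers of the distal ileum (Fabp6, Slc10a2, Slc51a and Slc51b) were between 5016 and 8237 FPKM with water, 7286 and 8893 with low PAC and 7538 and 11717 with high PAC, mostly Fabp6, and none of the 4 had an unadjusted p under 0.05 in edgeR. Of 5 markers of the proximal small intestine, Gata4 was at 7.09 ± 5.12, 2.76 ± 2.42 and 1.33 ± 1.63 FPKM with water, low PAC and high PAC, with a log2 fold change of -2.48 with high PAC (SE 0.76, edgeR adjusted p = 0.211). Cyp2b10 was at 2.50 ± 2.36, 0.936 ± 0.839 and 0.618 ± 0.337, with a log2 fold change of -2.08 with high PAC (SE 0.73, edgeR adjusted p = 0.25), and both had an unadjusted p under 0.05 with high PAC alone. The others, Cybrd1, Slc40a1 and Fabp1, were at -0.09, 0.38 and 0.46. The proximal sum was mostly Fabp1, at 212 of 239 FPKM with water and 307 of 332 with high PAC, so that a relation to the sum says nothing of Gata4 and Cyp2b10. Relations of Nt5e and Bst1 to Gata4 and Cyp2b10 were not tested. With the distal sum, Nt5e had r = 0.096 (permutation p = 0.78, adjusted p = 0.97). Markers of the exocrine pancreas were at or under 0.08.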

How the data were processed

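Ileal RNA of 15 mice was sequenced on a BGISEQ-500, reads being cleaned with SOAPnuke and aligned to mm10 with Bowtie2 according to the methods, while the submitters' processing notes name HISAT, DESeq2 and mm10. The tool that counted fragments is not given in the sources used here. The authors deposited, per mouse, an expected count for each gene, not normalized, and FPKM with 2 decimals. A gene not listed in a mouse was taken as 0.

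Expected counts were rounded and tested in edgeR 4.0.16 (quasi-likelihood, TMM, filterByExpr, R 4.3.3) in 1 model of the 3 groups of 5, with Benjamini-Hochberg adjustment over 14386 genes and a threshold of 0.05. The totals, between 15963086 and 17903886, set the precision of low genes. Nothing in the labels pairs mice, and the p-values set the difference between groups against the spread between mice. FPKM were compared as log2(FPKM + 0.1) with the exact two-sided permutation test, with 252 divisions of 10 mice and 30 tests. Relations with marker sums used 100000 permutations within groups. DESeq2 1.42.0, limma 3.58.1 (on FPKM), other normalizations and filters, a replicate block and the omission of single mice were alternatives, and 2 covariates were chosen after seeing the data. The fit was tested on simulated data.

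The enzymes, the pathway and marker lists were chosen with earlier results of these data known. All enzymes are named. Of the other pathway genes, those with an unadjusted p under 0.05 and the most abundant of each role are named, with Sirt5, chosen after its values were seen, and also the 3 genes most like each enzyme. The pathway gene Art2a was not found. Positions are from GENCODE release 21 of GRCm38, and promoter windows from RefSeq.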

Additional observations from a re-analysis of the deposited data

Results flagged for a closer look

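Of 66 groups of 5 mice examined, 4 held a mouse farther from the others than Dixon's 95% critical value of 0.71 for the gap over the range, and chance gives about 1 in 20. Qprt in low PAC replicate 4 was at 0.06 FPKM, with a gap of 0.792 of the range and a single count. Nadk2 in water replicate 2 was at 15.1 FPKM (0.847), above the other water mice, and without it the log2 fold change with high PAC was 0.32 (adjusted p = 0.212, edgeR). Sirt2 in water replicate 1 was at 39.6 FPKM (0.715), and Tnks in high PAC replicate 3 was at 4.00 FPKM (0.782).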

How the results depend on the processing

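No enzyme passed an adjusted p of 0.05 under any edgeR or limma alternative. Nt5e passed in DESeq2 with high PAC against water (-0.70, adjusted p = 0.005). The directions of Nt5e, Bst1, Naprt and Nadsyn1 against water were kept under all alternatives run, with Bst1 at 0.00 for low PAC with the enterocyte covariate. Over all genes, the count with an adjusted p under 0.05 for high PAC against water was 4 with only the 2 groups compared, 155 in DESeq2, 9 and 8 in limma on log2(FPKM + 0.1) and log2(FPKM + 1), 5 in limma with every listed gene, 7 with the enterocyte covariate and 2 to 11 without single mice. For low PAC against water it was 2 in DESeq2 and 0 to 1 without single mice, and for high against low PAC 0 to 0. Enzymes with an unadjusted p under 0.05 for high PAC against water were 2 with upper-quartile normalization, 2 in each limma fit, 1 with the enterocyte covariate and 3 to 4 without single mice. For low PAC they were 1 in each limma fit and 1 to 3 without single mice, and for high against low PAC 0 to 0. Pathway genes for high PAC against water were 3 with the enterocyte covariate, 7 with the follicular B cell covariate and 3 to 6 without single mice. For low PAC they were 0 with upper-quartile normalization, in each limma fit and with the enterocyte covariate, 2 with only the 2 groups compared, with the replicate block and with the follicular B cell covariate, and 0 to 3 without single mice. For high against low PAC they were 1 with upper-quartile normalization, the replicate block, each limma fit and the follicular B cell covariate, and 0 to 3 without single mice. The share of all genes with an unadjusted p under 0.05, beside which these counts stand, was for high PAC against water 16.1% with upper-quartile normalization, 16.8% to 19.9% in limma, 7.81% with the enterocyte covariate, 17.2% with the follicular B cell covariate and 10.5% to 17.0% without single mice. For low PAC it was 3.63%, 4.01% to 4.46%, 3.47% and 2.03% to 5.56%, with 4.46% for only the 2 groups compared and 3.73% with the follicular B cell covariate. For high against low PAC it was 4.70% with upper-quartile normalization, 5.00% to 5.53% in limma, 3.84% with the follicular B cell covariate and 1.83% to 6.82% without single mice.

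Log2 fold changes near 0 changed sign, none of them past the threshold after adjustment. With high PAC against water, Nmrk1 was at 0.0357 with upper-quartile normalization, 0.0054 without the filter and 0.0583, 0.0497 and 0.0583 in the 3 limma fits. Nnmt was at 0.0256, in limma at 0.052, 0.0378 and 0.052, and with the enterocyte covariate at 0.539. Cd38 was at 0.0395, without the filter at 0.0098, and in limma at 0.0309, 0.031 and 0.0309. With low PAC against water, Nampt was at 0.029, 0.0275 and 0.029 in limma, Nmrk1 at -0.0062 with the replicate block and -0.0304 with the enterocyte covariate, and Cd38 at -0.309 with the enterocyte and -0.0006 with the follicular B cell covariate. Between high and low PAC, Naprt was at 0.0217 with upper-quartile normalization, 0.0006 without the filter and 0.0318, 0.031 and 0.0318 in limma, and Nmrk1 at 0.0031 with upper-quartile normalization and 0.0174, 0.0135 and 0.0174 in limma. Without single mice, high PAC against water ran from -0.227 to 0.0778 for Cd38, -0.154 to 0.0191 for Nmnat1, -0.105 to 0.0562 for Nmrk1 and -0.249 to 0.144 for Nnmt. Low PAC against water ran from -0.108 to 0.146 for Cd38, -0.105 to 0.0391 for Nampt and -0.0545 to 0.088 for Nmrk1. High against low PAC ran from -0.264 to 0.0859 for Cd38, -0.0378 to 0.0178 for Naprt, -0.0132 to 0.139 for Nmnat1 and -0.116 to 0.0336 for Nmrk1. The cause of these changes was not tested.

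Nothing in the labels pairs mice by replicate number, and a pairing was not tested. The correlation of the deviations of mice with the same number was between -0.216 and 0.445 for high PAC against water. Its mean was 0.149 against -0.038 for different numbers. For low PAC against water these means were 0.123 and -0.031, and between the PAC groups -0.123 and 0.032. With the replicate block, 3 enzymes had an unadjusted p under 0.05 for high PAC, among them Nt5e at -0.69 and Bst1 at -0.63, where 12.8% of all genes did, and 2 for low PAC, where 3.27% did. Between the PAC groups it was 0, where 3.20% did. The fewest counts were those of Qprt and Nnmt, at 1 to 9 and 10 to 33 a mouse.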
